A study of Mus musculus with 20 samples.

Results

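In the expression table of this study 42 rows were lower in Grhl3 conditional knockout (cKO) than in Grhl3 wild-type (WT) mouse epidermis in every condition measured. They were chosen from 35556 rows (probe sets) by their own values: rows with distinct values and a mean of at least 6 on the log2(intensity + 16) scale were kept (30315), and of these the rows whose higher cKO array lay below the lower WT array in each of 5 conditions. The genotype differences of these rows are therefore given as a description, without a test. The rows are lettered A to Z and AA to AP, from the largest to the smallest mean difference.

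Dispase-separated epidermis of the dorsal skin of adult C57B6 mice (age in weeks not given in the labels) was hybridised to Affymetrix Gene ST arrays, with 20 arrays in 10 groups of 2. Skin was taken on day 4 after wax stripping (male mice), on day 4 of imiquimod treatment from unaffected and injured areas (female mice), and on day 8, in recovery from imiquimod, from unaffected and injured areas (male mice). Each condition had 2 WT and 2 cKO arrays, called biological replicates in the labels, and Krt14cre is named in the labels of both genotypes. Krt14 drives Cre in basal keratinocytes and their descendants, so that other cells of the separated tissue, such as immune cells, would keep the gene. The labels do not say whether the unaffected and injured areas of an experiment came from the same mice.

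Grhl3 is a Grainyhead-like transcription factor that acts in the outer living layers of the epidermis, where it promotes terminal differentiation and the formation of the barrier, and it is known for its part in wound closure. Wax stripping removes the outer layers of the epidermis physically. Imiquimod is a Toll-like receptor agonist whose cream produces psoriasis-like inflammation with thickening of the epidermis.

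No row is named as a gene. The probe table gives 31 of the 42 rows 1 symbol, but the values did not bear its pairing out: ranked by mean signal, the 217 rows labelled as ribosomal protein genes centred on percentile 54.5 and the 1035 labelled as olfactory receptors on percentile 52.2, although the former are strongly expressed in all tissues and the latter belong to the olfactory epithelium. Pairs of rows that carry 1 symbol correlated with a median r of only 0.07 over the arrays (8989 pairs). The Grhl3 transcript, epidermal markers and gene lists were not read for this reason, and no sequence is given. The tissue label and the knockout itself were thus not checked here.

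Array medians lay between 169.1 and 199.9 intensity units, and replicate arrays correlated at 0.980 to 0.992. In 5 rows of the table, none of them among the 42, all 4 injured recovery arrays, labelled male, lay with the arrays labelled female. By 3.67 to 6.74 on the log2 scale, these rows parted the female arrays from the male arrays of wax-stripped and unaffected recovery skin. The next rows, with gaps of 1.04, 0.92 and 0.77, had 4, 1 and 2 of the injured recovery arrays on the female side. All arrays labelled female are of imiquimod skin on day 4, so such rows part experiment and day as well as labelled sex. Whether the rows are sex-linked is not known here. Without the 4 injured recovery arrays the rule, applied to the other 4 conditions, found 72 rows. With fewer conditions the rule is looser and must keep the 42, so their staying is no check on the part of these arrays.

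The mean cKO minus WT difference of the 42 rows, over the 5 conditions, ran from -3.45 in row A to -0.11 in row AP on the log2 scale, with a median of -0.43. Only 5 rows (A to E) were at least 2-fold lower on this mean, 10 were lower by 1.5-fold to 2-fold, and 27 by less than 1.5-fold. Most were well expressed: 37 of 42 lay above the median signal of the 30315 rows, with a median level of 9.12 against 8.00 on the log2 scale. This level is a description, since the rule can favour rows whose replicates lie close, and the 30315 rows were not matched in spread. The opposite rule, with both cKO arrays above both WT arrays in every condition, found 67 rows.

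**Figure D1:**
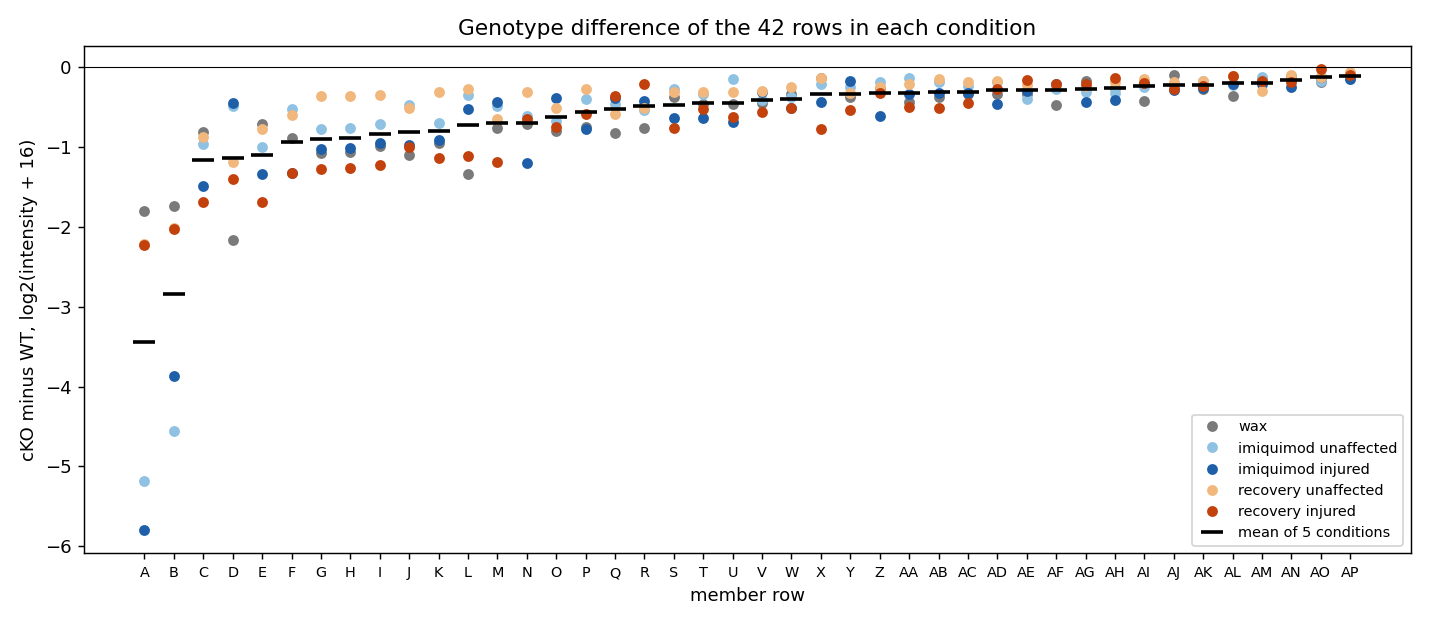
Difference between cKO and WT means (log2(intensity + 16), vertical axis) of the 42 rows (horizontal axis) in each of the 5 conditions, with 2 arrays per genotype and condition. Each point is 1 condition and each bar the mean of 5. On the mean rows A and B fell further than the other 40, and they fell most in imiquimod skin; after wax stripping row D fell furthest.

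Rows A and B, which carry the IDs 10501315 and 10502714 in the deposited table, had the largest mean falls and a shared profile. In wax-stripped skin row A read 2866 and 3349 intensity units in WT and 500.1 and 1527 in cKO mice. In imiquimod skin it read 1331 and 918 in unaffected and 892 and 1509.7 in injured WT areas. The cKO arrays of that experiment read 25.2 and 7.26 in unaffected and 11.9 and 0.00425 in injured areas, so the signal was near 0 in all 4. Unaffected recovery skin read 2922 and 5220.5 in WT and 336 and 1998 in cKO mice. Injured recovery skin read 1428 and 1237 in WT and 52.6 and 1184 in cKO mice. The cKO arrays thus fell into a wide range outside imiquimod skin: replicates differed by up to 4.13 on the log2 scale, in injured recovery skin, where 1 cKO array came within 0.06 of the lower WT array and the other lay far below.

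Row B repeated this pattern at a lower signal, with 1489.6 and 1611 against 275 and 739 after wax stripping. It read 623 and 472 against 13.5 and 3.10 in unaffected imiquimod skin, and 439.8 and 715 against 14.7 and 35.1 in injured imiquimod skin. In recovery it read 1278 and 2462 against 201 and 893 in unaffected, and 717 and 584 against 33.1 and 523 in injured areas (WT against cKO). The rows correlated at r = 0.98 over the 20 arrays and lie 133 rows apart in the table. In both rows replicate 1 of the cKO mice was the lower array after wax stripping and in both areas of recovery skin.

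The mean genotype difference was -3.45 ± 0.46 (limma SE) in row A and -2.84 ± 0.39 in row B. It was -5.18 and -5.80 in unaffected and injured imiquimod skin for row A, and between -2.23 and -1.80 in the other conditions. The level of both rows also differed between the kinds of skin. In WT mice row A lay between 2866 and 5220.5 in wax-stripped and unaffected recovery skin (4 arrays) and between 892 and 1509.7 in imiquimod and injured recovery skin (6 arrays), without overlap. Row B lay between 1278 and 2462 in the former and between 439.8 and 717 in the latter. In cKO mice the same kinds of skin overlapped, with 336 to 1998 against 0.00425 to 1184 in row A and 201 to 893 against 3.10 to 523 in row B. The genotype difference of row A in injured recovery skin, at -2.23, was near those of wax-stripped and unaffected recovery skin. The injured recovery arrays are those that lay with the arrays labelled female in 5 other rows, and the part of sex in these levels was not tested.

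Unaffected imiquimod against unaffected recovery skin, averaged over both genotypes, is a contrast other than the one that chose the rows. It gave -3.29 ± 0.73 for row A and -2.95 ± 0.62 for row B on the log2 scale (limma adjusted p = 0.00567 and 0.00415). It was -1.81 in WT and -4.77 in cKO mice for row A, and -1.68 and -4.23 for row B, and the cKO values are set against arrays near 0. The same imiquimod cKO arrays entered the genotype falls by which both rows were chosen, so the comparison is not independent of the choice. In unaffected recovery skin the cKO replicates of row A spread more widely than the WT ones (SD 1.78 and 0.59, log2). The test pools this spread over the groups. Sex, day and experiment cannot be told apart in the comparison.

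**Figure D2:**
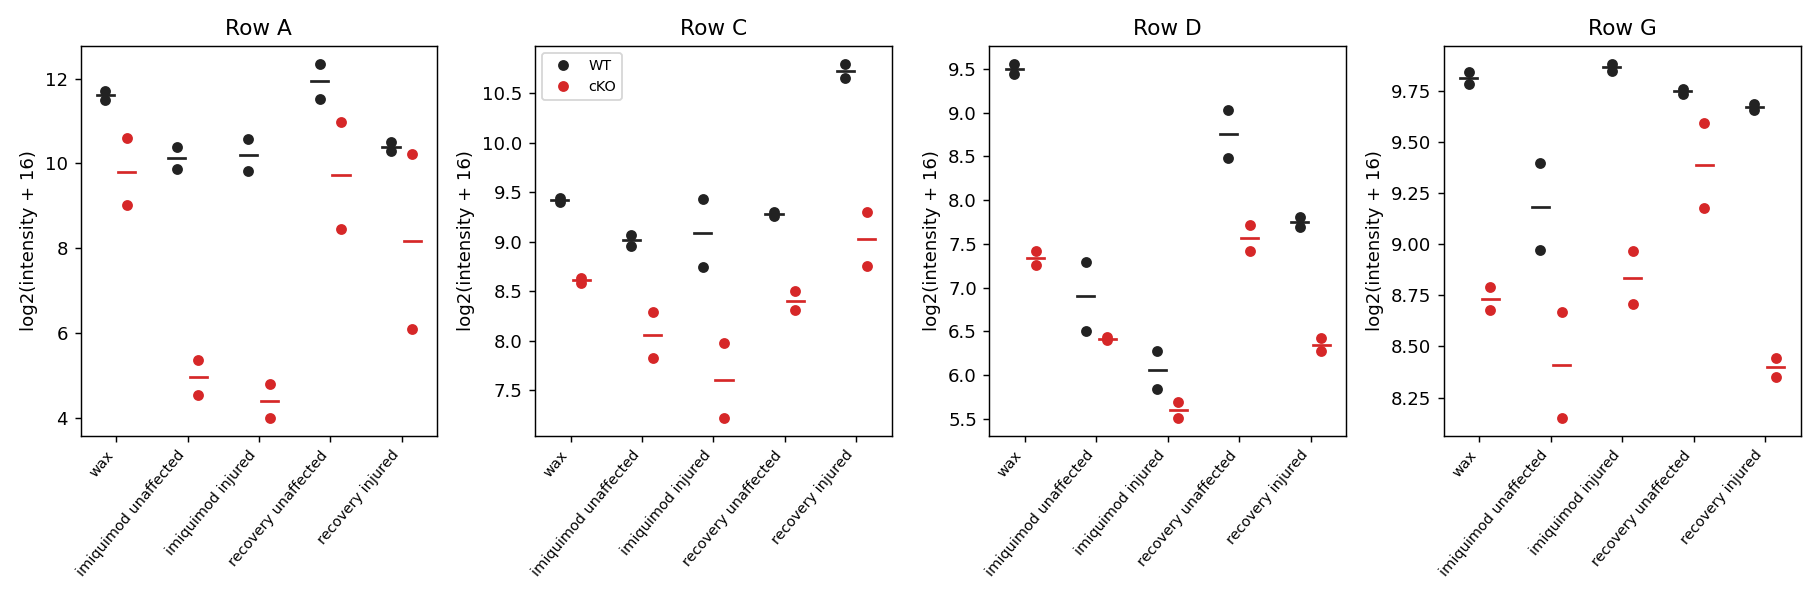
Signal of rows A, C, D and G (log2(intensity + 16), vertical axis, scaled per panel) in each array of the 5 conditions (horizontal axis). Points are arrays, bars the means of 2, black WT and red cKO. Every cKO point lies below both WT points of its condition, as the rule required. In row A the cKO arrays of wax-stripped and recovery skin are far apart and those of imiquimod skin near the bottom of the scale.

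Rows C and E formed another pair with near-identical profiles (r above 0.99, 29 rows apart), and both rose in the injured area in recovery. In row C the wax-stripped arrays read 662 and 679.5 in WT and 368 and 381 in cKO mice. Unaffected imiquimod skin read 522 and 482 against 296 and 211, and injured imiquimod skin 675 and 413 against 237 and 133. Unaffected recovery skin read 615 and 598 against 346 and 301, and injured recovery skin 1591 and 1765 against 615 and 417 (WT against cKO). The WT arrays of injured recovery skin were thus the highest of the 20, and the cKO arrays there reached only the level of the other WT groups. The mean genotype difference was -1.17 ± 0.11 (limma SE) in row C and -1.10 ± 0.11 in row E, and in both rows the fall was largest in injured recovery skin, at -1.69.

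Row E read 699.8 and 712 against 416 and 432 after wax stripping, 571 and 551 against 341 and 217 in unaffected imiquimod skin, and 709 and 461 against 279.7 and 167 in injured imiquimod skin. It read 648 and 629 against 397 and 339.9 in unaffected, and 1686 and 1807 against 623 and 449 in injured recovery skin. The ratio of C to E, with 16 added to each, lay between 0.815 and 0.988 on the 20 arrays. The recovery response, averaged over both genotypes, was 1.03 ± 0.18 in row C and 0.97 ± 0.17 in row E (limma adjusted p = 0.000373 and 0.000443). In row C it was 1.44 in WT and 0.62 in cKO mice, values that are not tested here because the genotype contrast chose the row.

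Row D had the largest fall of the 42 after wax stripping, at -2.16. There it read 739 and 681 in WT and 155 and 137 in cKO mice. In imiquimod skin it was dim, with 141 and 75.0 against 70.3 and 68.3 in unaffected and 41.3 and 61.6 against 29.7 and 35.9 in injured areas. In recovery it read 341 and 506 against 155 and 195 in unaffected, and 208 and 190.4 against 61.4 and 69.9 in injured areas. Its genotype difference in imiquimod skin, at -0.49 and -0.45, was nearer 0 than in wax-stripped and recovery skin. The 2 WT arrays of unaffected imiquimod skin differed from each other by more than the lower one differed from the cKO arrays. Averaged over both genotypes, it differed by -1.505 ± 0.16 (log2, limma SE) between unaffected imiquimod and unaffected recovery skin, and by -0.82 ± 0.16 with imiquimod injury and -1.11 ± 0.16 with injury in recovery (limma adjusted p = 6.44e-05, 0.000851 and 8.75e-05).

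Rows G, H, I and K had near-identical profiles (r above 0.99 in each pair), and G, H and I are consecutive in the table, and whether they are separate transcripts is not known here. Row G read 866 and 901 against 427 and 393 after wax stripping and 485 and 659 against 390.4 and 268 in unaffected imiquimod skin (WT against cKO). It read 927 and 906 against 484 and 402 in injured imiquimod skin, 836 and 849 against 757 and 563 in unaffected recovery skin, and 807 and 790.3 against 333 and 310.4 in injured recovery skin. The genotype difference was smallest in unaffected recovery skin, at -0.36, and -1.27 in the injured area of the same experiment. With C and E, 6 of the 42 rows belong to such groups, and counting each group once leaves 38 profiles.

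Members were also found near each other in the table more often than other rows. Within 200 rows, 26 of 42 (61.9%) had another member, against 33.9% of the other rows having a member that near, and within 5 rows the shares were 11.9% and 1.11%. The members within 5 rows of another were G, H and I, which have near-identical profiles, and Q and AD. No share was computed with near-identical rows counted once. The order of the table carries some likeness of its own: rows 1 apart correlated with a median r of 0.10 over the arrays and rows 100 apart with 0.02. No place in the genome is read from this.

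Each condition alone gave the same pattern in many more rows, and this sets the background for the 42. Both cKO arrays lay below both WT arrays in 19.7% of the 30315 rows after wax stripping, 17.7% in unaffected and 23.9% in injured imiquimod skin, and 13.0% in unaffected and 23.5% in injured recovery skin. Of all rows, 254 passed in exactly 4 conditions and 42 in all 5. The conditions do not share arrays, so each can be read in rows chosen by the others.

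When a condition was left out of the choice, the chosen rows were lower in it more often than rows in general. Leaving out wax-stripped skin, 103 rows were lower in the other 4 conditions and 42 of them (40.8%) had both cKO arrays below both WT arrays after wax stripping, against 19.7% of all rows, while 10 had both cKO arrays above both WT arrays (20.8% of all rows). For unaffected imiquimod skin it was 42 of 97 (43.3%), against 17.7%, with 4 higher (15.3% of all rows). For injured imiquimod skin it was 42 of 86 (48.8%), against 23.9%, with 5 higher (23.8%). The share was 42 of 106 (39.6%) in unaffected recovery skin, against 13.0%, with 5 higher (16.5%). It was 42 of 72 (58.3%) in injured recovery skin, against 23.5%, with 1 higher (27.5%). The 42 are the same rows each time, and only the number chosen by the other conditions varied. Near-identical rows are counted separately in these shares, and all rows were not matched to the chosen ones in signal or replicate spread. The shares are given as a description, without a test.

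Leaving out both areas of an experiment, which may come from the same mice, also gave shares above those of all rows. Of 242 rows lower in wax-stripped and imiquimod skin 17.4% were lower in both recovery areas, against 2.69% of all rows. Of 341 rows lower in wax-stripped and recovery skin 12.3% were lower in both imiquimod areas, against 7.17%. Single arrays moved these shares. For wax-stripped skin the share was 23.2% without unaffected recovery WT replicate 2, 25.1% without unaffected imiquimod cKO replicate 2, and 25.6% without unaffected recovery cKO replicate 2. For unaffected recovery skin it was 20.1% without wax WT replicate 2 and 25.7% without wax cKO replicate 2, and for both recovery areas 8.82% and 10.5% without the same arrays. For injured imiquimod skin it was 31.0% without unaffected imiquimod cKO replicate 1. Leaving out an array of the condition that is read raises the share of all rows too. Without wax cKO replicate 1 the share for wax-stripped skin was 48.5% against 38.2% of all rows, and without wax WT replicate 2 it was 64.1% against 33.7%. For unaffected imiquimod skin it was 48.5% against 36.2% without unaffected imiquimod cKO replicate 2, 76.3% against 39.3% without cKO replicate 1 and 69.1% against 32.3% without WT replicate 2. For both imiquimod areas it was 21.7% against 9.66% without unaffected imiquimod cKO replicate 1 and 19.6% against 10.6% without WT replicate 2. Without unaffected imiquimod cKO replicate 2 it was 13.8%, below the 16.6% of all rows, so that the excess in both imiquimod areas rests on that array. It was 8.56% against 7.17% without unaffected recovery cKO replicate 1.

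**Figure D3:**
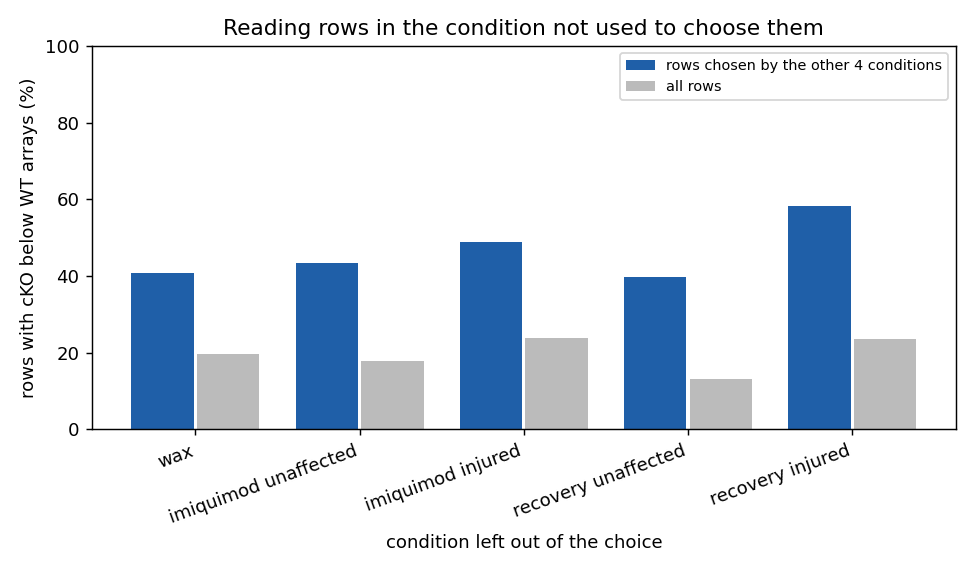
Share of rows (%, vertical axis) with both cKO arrays below both WT arrays in the condition named on the horizontal axis. Blue bars are the rows that the other 4 conditions chose (72 to 106 rows) and grey bars all 30315 rows. The blue bars lie between 39.6% and 58.3% and the grey bars between 13.0% and 23.9%. Near-identical rows are counted separately.

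The fall was not of 1 size across conditions. Its median over the 42 rows was -0.53 in injured recovery skin, -0.45 after wax stripping and -0.44 in injured imiquimod skin. It was -0.35 in unaffected imiquimod and -0.30 in unaffected recovery skin. The largest fall of a row was in injured recovery skin in 14 rows, in injured imiquimod skin in 13 and in wax-stripped skin in 11, but in unaffected imiquimod skin in 3 and in unaffected recovery skin in 1. The 14 include C, E, G, H, I and K, which belong to the groups of near-identical profiles and are counted separately here. Over all 30315 rows the lowest of the 5 differences was spread evenly, between 18.9% and 21.3% for each condition. All rows were not chosen by these differences, as the 42 were, so the counts are a description.

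In recovery skin 34 of 42 rows had the larger fall in the injured area, and in imiquimod skin 28 of 42, against 49.9% and 45.8% of all rows with the lower difference there. These counts are a description, since the same differences chose the rows, and near-identical rows are counted separately. In single conditions limma called 15 of the 42 lower in injured recovery skin (0.201% of all rows), 8 in injured imiquimod skin (0.0594%) and 7 after wax stripping (0.0594%). It called none in either unaffected skin, where 1 row and no row of the table were called lower (0.00330% and 0.00%). On the mean over conditions it called 37 of the 42, with 0.356% of all rows called lower. Over all rows this mean was called higher in 187 and lower in 108 rows, or in 185 and 193 after quantile normalization. Without the 4 injured recovery arrays the call was lost in 12 of the 37 rows (J, R, U, X, Y, AB, AD, AE, AI, AK, AL and AM). These arrays lay with the arrays labelled female in 5 other rows. Rows AL, AI and X lost the call in 16, 11 and 10 alternatives. The rule used these contrasts, so nothing is read from the counts.

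The rows nearest the threshold show how narrow the rule is. In row AA the lower WT array of unaffected imiquimod skin, at 244.1, lay just above the higher cKO array, at 244.0. Row Y had 376.2 and 376.0 there, and row F 2021 and 2020.2. In 30 of the 42 rows the gap was under 0.1 on the log2 scale in at least 1 condition. The smallest gap of a row lay in unaffected recovery skin in 15 of the 42 and in unaffected imiquimod skin in 14. Just outside, a row was missed in unaffected recovery skin, where its lower WT array read 488.0 and its higher cKO array 488.4. Another was missed after wax stripping, at 1793 against 1796, and the next in unaffected imiquimod skin, at 1321 against 1324. The mean differences of these 3 rows were -0.11, -0.17 and -0.09.

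Row F fell by a mean of 0.93 on the log2 scale although it sat at the threshold in 1 condition. It read 3334 and 3217 against 1721 and 1816 after wax stripping, 2998 and 2021 against 2020.2 and 1434 in unaffected imiquimod skin, and 2169.8 and 2039.7 against 890.4 and 766 in injured imiquimod skin. It read 3115 and 3556 against 2207 and 2184 in unaffected, and 4541 and 5177 against 1813 and 2039 in injured recovery skin. Rows AA and Y had mean differences of -0.33 each. Row AA read 339 and 331 against 231 and 254 after wax stripping, 279 and 244 against 244 and 228 in unaffected and 320.5 and 299 against 245 and 239 in injured imiquimod skin, and 279 and 264 against 223 and 241 in unaffected and 437 and 395 against 299 and 281 in injured recovery skin. Row Y read 424 and 412 against 322 and 314 after wax stripping, 402 and 376 against 376 and 281 in unaffected and 411 and 371 against 355 and 333 in injured imiquimod skin, and 424 and 468 against 388 and 319.8 in unaffected and 663 and 697 against 483 and 440.0 in injured recovery skin. In both rows the WT and cKO arrays were farthest apart in injured recovery skin.

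**Figure D4:**
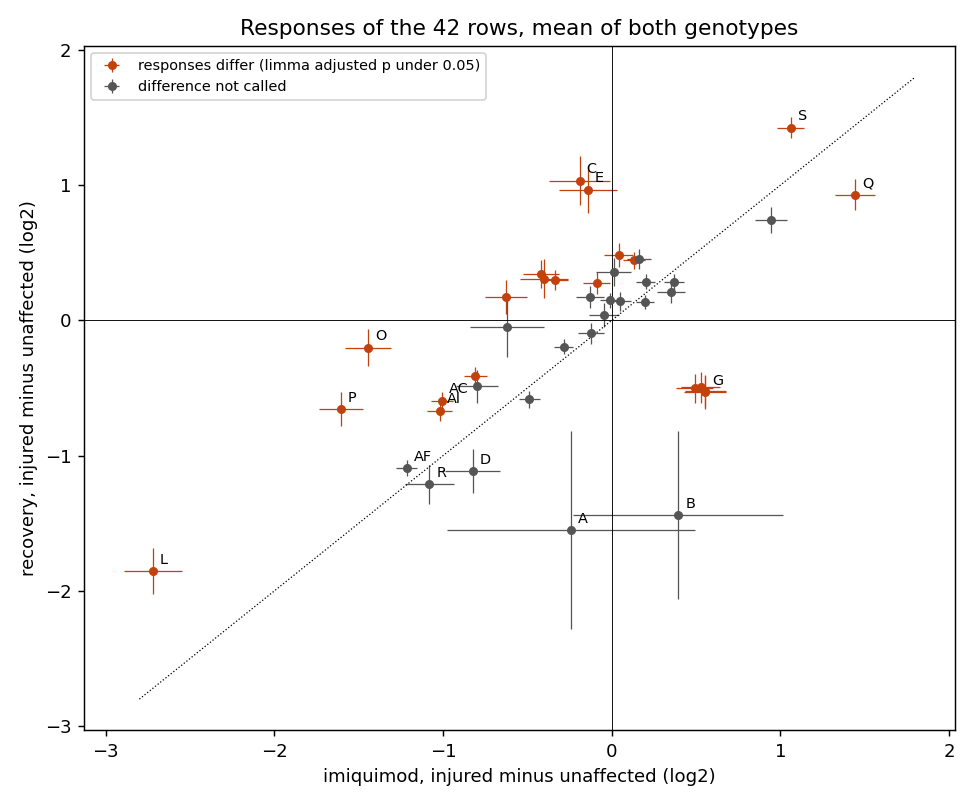
Response of each of the 42 rows to imiquimod (injured minus unaffected skin, log2, horizontal axis) and in recovery (vertical axis), averaged over both genotypes. Bars are limma standard errors, orange rows are those whose responses differ (limma adjusted p under 0.05), and the dotted line marks equal responses. L lies lowest with imiquimod, Q and S high in both, C and E high only in recovery, and the group of G on opposite sides.

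The responses to injury, averaged over both genotypes, do not use the contrast that chose the rows and were tested. The rule can still favour rows whose replicates lie close, and the same spread enters these tests. The number called among the 42 is therefore not independent of the choice, and the shares of all rows are background only. Near-identical rows are counted separately in this and the following counts. With imiquimod 11 of the 42 rows were higher and 17 lower in injured than in unaffected skin, where 21.0% of all rows were higher and 22.6% lower (limma adjusted p under 0.05). The imiquimod calls of J, N, AK and AM were lost in 7, 8, 2 and 1 of 31 alternatives. In recovery 17 were higher and 15 lower, against 23.6% and 32.9% of all rows. The recovery call of AO was lost in 11 of 30 alternatives. The median change of the 42 was -0.13 with imiquimod and 0.09 in recovery, against 0.01 and -0.10 over all rows. Over all rows these were 6365 higher and 6863 lower with imiquimod, and 7146 and 9981 in recovery. With each array centred on its median they were 8636 and 5647 with imiquimod, and 8767 and 6540 in recovery.

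Rows lowered in the injured area of both experiments were D, L, P, R, U, V, AC, AF, AI, AL and AP, 11 of 42, against 12.8% of all rows. Row L fell most. It read 409.6 and 368 in WT and 352 and 256 in cKO mice in unaffected imiquimod skin, and 33.4 and 69.9 in WT and 31.6 and 27.0 in cKO mice in the injured area. In recovery it went from 498 and 559 to 145 and 235 in WT, and from 392 and 474 to 86.3 and 68.6 in cKO mice, and after wax stripping it read 405 and 449 in WT and 159 and 158 in cKO mice. The areas did not overlap in either genotype. The change was -2.72 ± 0.17 with imiquimod and -1.85 ± 0.17 in recovery (log2, limma SE, adjusted p = 3.19e-08 and 1.74e-06).

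Row P had the next largest change with imiquimod, at -1.61 ± 0.13 (limma adjusted p = 2.77e-07). It went from 687 and 879 to 372 and 212 in WT and from 599 and 571 to 161 and 154 in cKO mice. In recovery it went from 937 and 868 to 611 and 657 and from 772 and 712 to 405 and 427, a change of -0.65 ± 0.13, and after wax stripping it read 787 and 848 in WT and 508 and 452 in cKO mice. Row P thus fell in both experiments and further with imiquimod.

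Row O fell with imiquimod by 1.45 ± 0.13 on the log2 scale (limma adjusted p = 1.08e-06). It went from 607 and 962 to 255 and 233 in WT and from 415 and 538 to 219 and 151 in cKO mice. In recovery it read 523 and 537 in unaffected and 497 and 503 in injured WT areas, and 383 and 353 against 269 and 315 in cKO mice. Its recovery change of -0.20 ± 0.13 was not called (limma adjusted p = 0.214), and it read 553 and 576 in WT and 319 and 318 in cKO mice after wax stripping.

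Row R fell in both experiments, by 1.08 ± 0.14 with imiquimod and by 1.21 ± 0.14 in recovery (limma adjusted p = 2.83e-05 and 1.43e-05). It read 267 and 330.5 against 107 and 149.7 in WT and 239 and 167 against 87.6 and 92.5 in cKO mice with imiquimod, unaffected against injured. In recovery it read 609 and 574 against 219 and 221 in WT, and 344 and 485 against 170.4 and 206 in cKO mice. Wax-stripped skin, at 560.4 and 575 in WT and 279 and 382 in cKO mice, differed from unaffected recovery skin by -0.18 ± 0.14 (limma adjusted p = 0.317).

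Rows AC, AF, AI and AL, whose mean genotype differences were -0.31 to -0.20, all fell, with correlations of 0.96 to 0.98 over the arrays among AC, AI and AL. Row AC went from 709.5 and 648 to 357 and 326 in WT and from 572 and 578 to 267 and 269.7 in cKO mice with imiquimod. It went from 792 and 733 to 528 and 570.1 in WT and from 698 and 634 to 380.5 and 413 in cKO mice in recovery. Its wax-stripped arrays read 488 and 518 in WT and 416 and 371 in cKO mice. The changes with imiquimod were -1.01 ± 0.06 in AC, -1.21 ± 0.06 in AF, -1.02 ± 0.07 in AI and -0.81 ± 0.07 in AL (limma adjusted p between 5.98e-09 and 3.49e-07).

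Rows raised in the injured area of both experiments were Q, S, W, AG, AH, AK and AM, 7 of 42, against 14.5% of all rows. The recovery calls of W and AM were lost in 12 and 13 of 30 alternatives. Row S rose most in recovery. It went from 528 and 560.3 to 1768 and 1722 in WT and from 456 and 416 to 1085 and 961 in cKO mice, and with imiquimod from 544 and 514 to 1209.9 and 1341 and from 478 and 394 to 887 and 741. The changes were 1.43 ± 0.08 in recovery and 1.06 ± 0.08 with imiquimod (limma adjusted p = 2.82e-08 and 1.65e-07). Wax-stripped skin read 561 and 556 in WT and 453 and 402 in cKO mice, 0.01 ± 0.08 from unaffected recovery skin (limma adjusted p = 0.963), and every injured array lay above every unaffected and wax-stripped array.

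Row Q had the largest rise with imiquimod among the 42. It went from 174 and 189 to 581 and 443 in WT and from 139 and 117 to 347 and 427 in cKO mice with imiquimod, a change of 1.44 ± 0.12 (limma adjusted p = 2.81e-07). In recovery it went from 286 and 230.2 to 467 and 464 in WT and from 164 and 167 to 383 and 334 in cKO mice, a change of 0.93 ± 0.12 (adjusted p = 2.34e-05). Wax-stripped skin read 616 and 624 in WT and 406 and 291 in cKO mice, 1.10 ± 0.12 above unaffected recovery skin (limma adjusted p = 1.23e-05).

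Wax-stripped skin was set against unaffected recovery skin, which it shares with the recovery response as a control and from which it also differs in day and experiment. Here 3 of the 42 rows were higher and 8 lower, against 15.9% and 24.9% of all rows (limma adjusted p under 0.05). With each array centred on its median the split of the 42 was 6 higher and 7 lower. Over all rows the split was 4833 higher and 7549 lower, with centring 6230 and 4260, and after quantile normalization 5219 and 5421. Rows Q, AG and AA were higher, the last at 0.17 ± 0.06 with a limma adjusted p of 0.0425. Its call was lost in 4 of the other settings, where the adjusted p was 0.0502 to 0.0628, and without any 1 of 10 arrays. The calls of P and AG were lost in 9 and 2 of 31 alternatives. After row Q the largest changes were in L, at -0.83 ± 0.17, and AC, at -0.66 ± 0.06 (limma adjusted p = 0.00223 and 6.73e-06).

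Rows with opposite responses were G, H, I and K, which rose with imiquimod and fell in recovery (4 of 42, 1.12% of all rows), and M and AB, which did the reverse (2 of 42, 1.24%). Rows G, H, I and K have near-identical profiles and are not separate observations, so their count is not to be read against the share of all rows. Row G changed by 0.55 ± 0.12 with imiquimod and by -0.53 ± 0.12 in recovery (limma adjusted p = 0.00224 and 0.00287). Its recovery change was -0.99 in cKO and -0.08 in WT mice, which is given without a test. Row M changed by -0.42 ± 0.11 with imiquimod and by 0.34 ± 0.11 in recovery (limma adjusted p = 0.00492 and 0.0144). Its recovery call was lost without unaffected recovery WT replicate 1 or injured recovery WT replicate 2. It read 340.0 and 409 in injured recovery WT skin against 225 and 252 in the unaffected area, and 157 and 153 against 143 and 151 in cKO mice.

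The imiquimod response minus the recovery response, tested directly, was called in 21 of the 42 rows. The signed difference was positive in 5 and negative in 16, where 12.7% and 13.0% of all rows were called. A negative difference can be a deeper fall with imiquimod, as in L, P and O. The 5 are Q and the near-identical rows G, H, I and K, and the 16 include the near-identical C and E. Without injured recovery cKO replicate 1 it was called in 14. Of the remaining rows 6 were called in neither the imiquimod nor the recovery comparison: A, B, T, AD, AJ and AN, against 29.6% of all rows. In A and B the standard errors of these changes were 0.62 to 0.73, since their cKO replicates lay far apart, and recovery changes of -1.55 and -1.44 were not called (limma adjusted p = 0.0861 and 0.0623).

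Between the 2 kinds of unaffected skin, 3 of the 42 rows were higher and 18 lower in imiquimod than in recovery mice, against 11.9% and 16.6% of all rows (limma adjusted p under 0.05). With each array centred on its median 4 were higher and 10 lower, while over all rows the split went from 3597 higher and 5018 lower to 5362 and 2690. The count of 21 became 13 with only these 8 arrays, and 12 or 13 without unaffected recovery WT replicate 1 or cKO replicate 1, or without unaffected imiquimod WT replicate 2 or cKO replicate 2. Rows D and R changed by -1.505 ± 0.16 and -0.97 ± 0.14 on the average of both genotypes. In WT mice the change was -1.85 in D, -1.81 in A and -1.68 in B.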

How the data were processed

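Each of 20 arrays (2 per group) held RNA of dorsal epidermis from 1 genotype and condition. The deposited table gives linear intensity per probe set. The submitters' processing notes name Affymetrix Expression Console and PLIER, with versions and normalization not given in the sources used here. Since log values are unsteady near 0, changes are on the log2(value + 16) scale and understate those of dim rows. Among rows that repeat another row exactly, 476 were dropped. A group-means model over 20 arrays (limma 3.58.1 in R 4.3.3, eBayes without trend, 10 residual degrees of freedom) was fitted to 30315 rows with Benjamini-Hochberg adjustment and a threshold of 0.05. Errors are limma standard errors. The number of arrays limits the precision. The p-values rest on a spread between replicates that is pooled over the groups of 2 arrays. They treat the areas of an experiment as independent, although these may come from the same mice.

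Members and comparisons were chosen with earlier results of these data known. By the rule for named rows, values are given for the 5 largest mean falls, the 3 largest called changes in each injury response and the 3 rows nearest the threshold, with the 3 just outside. Rows G, M, AF, AI and AL were added after their values were seen. In simulated data for the imiquimod response (30315 rows, 200 changed) the share of changes found was 67.2% at 1.5-fold, 97.0% at 2-fold and 100% at 4-fold. There were 4 false calls. For the imiquimod minus the recovery response it was 47.8%, 85.1% and 98.5%, with 10 false calls. The simulated noise was independent between arrays, and far fewer rows changed than were called here (6365 higher and 6863 lower with imiquimod). The simulated shares and false calls therefore do not carry over to these data. Alternatives are given in the closing section.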

Additional observations from a re-analysis of the deposited data

Results flagged for a closer look

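The imiquimod and the recovery response differed, by the limma test of the difference itself, in 21 of the 42 rows. Near-identical rows (C and E, and G, H, I and K) are counted separately. The imiquimod minus recovery values (log2, both genotypes averaged) were positive in G (1.09), H (1.08), I (1.02), K (0.99) and Q (0.51). Negative values include deeper falls with imiquimod, as in O, P and L. They were found in O (-1.24), C (-1.22), E (-1.11), P (-0.95), L (-0.87), F (-0.80) and M (-0.76), and in N (-0.71), AB (-0.63), Y (-0.44), AC (-0.41) and AL (-0.40). The remaining values were -0.37 in S, -0.36 in AE, -0.35 in AI and -0.31 in AA. Limma adjusted p values lay between 0.000897 and 0.0365. Labelled sex, day and experiment also differ between these responses and cannot be told apart. The injured recovery arrays are those that lay with the arrays labelled female in 5 other rows. Calls were lost in 2 of 30 alternatives for L and Y, 4 for AA, 5 for N, 9 for S and AI, and 10 for Q and AE. The highest adjusted p among these was 0.0945, in AE, and the other 13 rows kept their call in each alternative. Groups of 2 arrays allow no check for a single outlying array.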

How the results depend on the processing

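The number of rows that meet the rule was 83 after quantile normalization, 38 of the 42 among them. It was 72 without the injured recovery arrays, where the rule is looser. It was 38 to 44 under the other settings that kept all arrays, and 34 of the 42 stayed with each array centred on its median. Leaving out an array, which loosens the rule and so must keep the 42, gave 45 to 74 rows. It gave 74, 67 and 66 without unaffected imiquimod cKO replicate 1, unaffected imiquimod WT replicate 2 and wax WT replicate 2. Shares in the condition left out were 60.1% (wax-stripped) and 74.1% (injured recovery) after quantile normalization, and 64.4% (wax-stripped) when only rows above the 50th percentile of mean signal were kept. For both imiquimod areas the share was 18.4% after quantile normalization, and for both recovery areas 22.9% with median centring and 22.8% above the 50th percentile. Without 1 array these shares ran from 23.2% to 64.1% (wax-stripped), 33.8% to 76.3% and 31.0% to 70.9% (unaffected and injured imiquimod), 20.1% to 56.6% and 43.5% to 76.4% (unaffected and injured recovery), 8.56% to 21.7% (both imiquimod areas) and 8.82% to 24.8% (both recovery areas). Leaving out an array of the condition read also raises the share of all rows, as given in the report.

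Of the 42 rows, limma called 26 to 29 with imiquimod, 28 to 34 in recovery, 9 to 15 for wax-stripped skin, 12 to 24 between unaffected skins, 14 to 24 for the difference of responses and 33 to 39 for the mean genotype difference when 1 array was left out. Fitted on its own 8 arrays alone, the comparison of unaffected skins had a count of 13. The labels do not say that replicate numbers pair samples, and the differences between replicates 1 and 2 correlated at -0.25 to 0.29 over 45 pairs of groups, above 0.1 in 10. Between the unaffected and injured areas of a genotype they correlated at -0.16 (WT) and -0.05 (cKO) with imiquimod and at 0.03 and 0.06 in recovery, which does not show whether the areas share mice. With the replicate number as a block the counts were 28, 34, 13, 21, 22 and 38 in the same order. Over the 42 rows, of 4694 values of called changes and mean genotype differences under an alternative, none turned its direction, 275 lost their call and 19 gained one. The calls of A, B, D and R between unaffected skins, of C, E, G, H, I, K, L, P, R and S in recovery and of G, H, I, K, L, P, O, R and Q with imiquimod held under every alternative run. The cause of these differences was not tested. The number of arrays limits all of them, and rows near 0 such as A and B in imiquimod cKO skin have no precise fold change.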
